A study of Mus musculus with 564 samples.

Results

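Late LPS gains at pre-marked elements were 1023 of the 59190 cis-regulatory elements (CREs) whose acetylation of histone H3 at lysine 27 (H3K27ac) was measured in mouse macrophages by ChIP-seq. These CREs carried the mark before stimulation, had gained none or little of it after 30 min and 1 h of LPS, and held more of it after 4 h. They were chosen by measured values of the vehicle (DMSO) libraries. D was the log2 of the mean of both DMSO libraries plus 5 at a time point, minus the same for unstimulated (UT) cells, and a CRE was kept with a mean UT level of at least 10, D of at most 0.3 at 30 min, at most 0.7 at 1 h and at least 1.2 at 4 h of LPS. The late rise in DMSO libraries is therefore a description of the choice and is given without a test. All levels are read counts that the authors normalized and rounded.

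The cells were macrophages grown from the bone marrow of wild type mice (BMDMs), a primary culture. All of them were pre-treated for 1 h, either with DMSO or with a clinical kinase inhibitor (CKI), a drug that blocks protein kinases, of which there were 58. They were then left UT or given LPS, the bacterial ligand of TLR4, or the cytokine IL-4, both at 10 ng/mL, for 30 min, 1 h, 2 h or 4 h. DMSO had 2 libraries in each of 9 conditions (18 libraries) and the CKIs had 546, with 1 library for most conditions of a CKI and 2 for 36 of them. The UT samples are named as time 0 in their titles and as 4 h without stimulus in their treatment label, and 1 UT group served both time courses. Nothing in the labels tells whether libraries of 1 group came from separate mice or cultures, so the spread between them may be technical.

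LPS reaches the nucleus in successive waves. NF-kB, AP-1 and IRF3 proteins act first and switch on immediate genes, among them the gene for interferon beta. Its rapid induction needs IRF3 that the kinase TBK1 has phosphorylated, as the paper describes. Secreted interferon then binds its receptor, JAK kinases at the receptor become active, and factors downstream of them bind interferon-stimulated response elements, in which the letters GAAA stand in pairs. H3K27ac marks active promoters and enhancers and is written by acetyltransferases that these factors recruit. Which factor bound a given CRE was not tested.

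An IRF pair, GAAANNGAAA on either strand, lay in the central 400 bases of 219 of the 1023 late-gain CREs (21.4%) against 6.57% of all CREs. The stretches below were chosen because these late-gain CREs had the largest 4 h difference in CKI libraries among those that hold the pair. Each is 101 bases of RefSeq GRCm38 (the build called mm10), written 5′ to 3′ on the strand of the motif, with the pair in capitals.
Slfn4, chr11:83173410-83173510, plus strand: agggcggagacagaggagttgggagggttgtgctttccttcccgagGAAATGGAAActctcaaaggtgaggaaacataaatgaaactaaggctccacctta
Ifi208, chr1:173673561-173673661, plus strand: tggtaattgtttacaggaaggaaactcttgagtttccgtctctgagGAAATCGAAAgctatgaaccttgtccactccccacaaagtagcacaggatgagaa
Phf11a, chr14:59297496-59297596, minus strand: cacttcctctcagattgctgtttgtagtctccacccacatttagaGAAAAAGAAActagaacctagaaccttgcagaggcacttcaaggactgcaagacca
Sema7a, chr9:57927882-57927982, minus strand: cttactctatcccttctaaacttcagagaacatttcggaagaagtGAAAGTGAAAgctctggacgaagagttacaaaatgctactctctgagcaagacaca
Plekhf2, chr4:10952367-10952467, minus strand: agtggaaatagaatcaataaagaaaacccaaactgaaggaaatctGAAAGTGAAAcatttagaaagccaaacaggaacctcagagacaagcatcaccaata
Mier3, chr13:111655415-111655515, plus strand: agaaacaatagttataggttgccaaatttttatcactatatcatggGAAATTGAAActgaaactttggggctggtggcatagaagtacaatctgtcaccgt

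The pair nearest the centre lay 142 bases from the centre of the Slfn4 CRE, 14 bases from that of the Mier3 CRE and at offset 0 in the Sema7a CRE. Sema7a and Plekhf2 held the same 10 letters, GAAAGTGAAA. The stretch of a CRE near Slfn1, chr11:83126704-83126804, was letter for letter the one printed for Slfn4. Of all 51-base windows of the Slfn4 CRE 49.3% occurred again on the GRCm38 chromosomes, and of that Slfn1 CRE 87.5%. Reads were trimmed to 51 bases, so reads from such windows cannot be assigned to 1 copy by sequence, and values there depend on how the authors placed them. A median of 0.395% of windows was repeated over the late-gain CREs, 121 of them had more than 10% and 21 more than 50%.

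A palindrome bound by STAT dimers, TTCNNNGAA, lay in the central 400 bases of 183 late-gain CREs (17.9%) against 12.3% of all CREs. The next 3 stretches are from the late-gain CREs with the largest CKI difference that held the palindrome and no IRF pair, with the palindrome in capitals.
Tgtp1, chr11:48994212-48994312, plus strand: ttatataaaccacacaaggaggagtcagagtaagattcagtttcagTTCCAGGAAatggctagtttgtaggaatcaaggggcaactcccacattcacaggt
Tomm70a, chr16:57130997-57131097, plus strand: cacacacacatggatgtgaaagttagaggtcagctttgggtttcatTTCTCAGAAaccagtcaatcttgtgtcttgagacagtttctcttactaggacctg
Edn1, chr13:42253932-42254032, plus strand: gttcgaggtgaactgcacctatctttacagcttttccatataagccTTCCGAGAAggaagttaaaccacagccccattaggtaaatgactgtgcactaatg

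In the DMSO libraries the median level of the late-gain CREs was 48 and 44 in the UT libraries, 30 and 34 at 30 min of LPS, 55 and 46 at 1 h, 148 and 147 at 2 h, and 190 and 171 at 4 h. Both 30 min libraries were below both UT libraries, and the 2 h and 4 h libraries were above all earlier ones. On the D scale the median was -0.35 at 30 min, 0.21 at 1 h, 1.43 at 2 h and 1.60 at 4 h. The upper limit that the rule sets on D at 30 min leaves out CREs that rose, so the low values at that time are in part given by the choice. In the limma fit of the DMSO libraries the 30 min difference was below 0 in 801 late-gain CREs and in 24551 of the 50587 CREs tested. By 2 h 637 CREs (62.3%) had already reached a D of 1.2, and 324 had a higher D at 2 h than at 4 h. D at 4 h reached 2 in 248 CREs and 3 in 34, with a maximum of 3.98. The 2 h value was not used by the rule but shares the UT libraries with it.

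**Figure D1:**
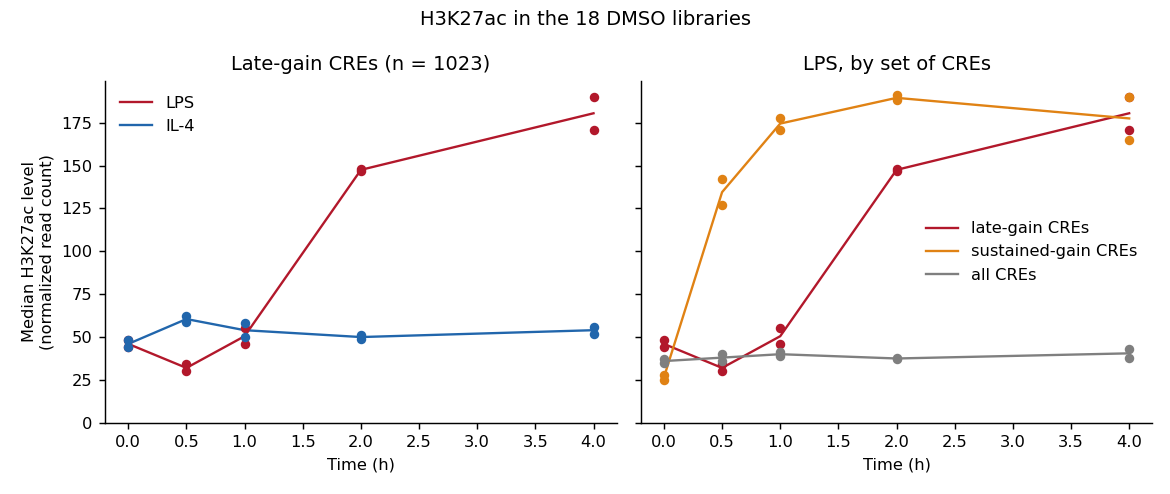
Median H3K27ac level (normalized read count) over CREs against time (h) in the 18 DMSO libraries, with 1 point per library and lines through the means, UT at time 0. Left, late-gain CREs under LPS (red) and IL-4 (blue). Right, late-gain, sustained-gain and all CREs under LPS. The late-gain CREs stand at 30 and 34 at 30 min and reach 190 and 171 at 4 h, while the sustained-gain CREs are already at 127 and 142 at 30 min.

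For comparison, 2705 sustained-gain CREs (D of at least 1 at 30 min and 1 h and at least 1.2 at 4 h) and 845 early transient CREs (at least 1.2 at 30 min and at most 0.3 at 4 h) were taken from the same libraries. The sustained-gain CREs started lower, with a median UT level of 26.5 against 45.5 for the late-gain CREs, and ended alike, at 190 and 165 at 4 h. UT levels of late-gain CREs ranged from 10 to 836, and 180 of them were under 20. There were 251 (24.5%) at 100 or more, against 29.6% of all CREs. Over all CREs with a UT level of at least 10 the median was 65. At the threshold, the late-gain CREs with the smallest D at 4 h lay near Ranbp2 and Capzb (both 1.2 when rounded), and the nearest CREs just outside, near Por and Fbxl14, had 1.2 as well. In CKI libraries the 4 h difference was 0.99 and 0.70 for the first pair, and 0.24 and 0.83 for the second.

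The CKI libraries, which the rule did not use, tested the same pattern. The values were fitted with limma on log2(value + 5), with a term for each CKI, so that each CKI is compared with its own UT library, and a CRE was called at a Benjamini-Hochberg adjusted p under 0.01 and a log2 difference over 0.5. The CKIs stood in for replicates in this fit, because most of their conditions have 1 library. Its SE and p therefore measure the spread between CKIs, not between repeats of 1 treatment. All 1023 late-gain CREs passed the filter on low values. At 4 h of LPS 1001 of them (97.8%) were higher than in UT cells, where 21.2% of all tested CREs were, and 0 were lower, where 20.9% of all were. The median log2 difference was 1.14 over late-gain CREs and 0.04 over all CREs. The CREs not called were 22. At 2 h 854 (83.5%) were higher, against 23.8% of all, with a median of 0.96.

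The early part of the course was also seen without DMSO. At 30 min of LPS 14 late-gain CREs (1.37%) were higher than UT, against 20.8% of all CREs. There were 232 (22.7%) lower at 30 min, a share close to the 18.9% of all CREs, and the median was -0.17. In 46 of 58 CKIs the median over late-gain CREs was below 0 at 30 min, a count not made for all CREs. The fitted 30 min median was 0.11 over all CREs. It was -0.07 over CREs with a DMSO UT level of at least 10. At 1 h 89 (8.70%) were higher, against 21.4% of all, and 42 (4.11%) were lower, against 19.5%, and the median was 0.12. Between 1 h and 4 h 948 (92.7%) rose, against 11.5% of all. Of the sustained-gain CREs 17.7% rose between these times.

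The LPS 1 h libraries of 4 CKIs stood apart. Over late-gain CREs the median difference from UT was 1.33 for Lenvatinib, 1.10 for TG100115, 1.05 for MK2206 and 0.96 for XL413, and it lay between -0.34 and 0.46 for the other 53 CKIs. All 4 belong to 1 of 6 runs of consecutive columns in the table. The labels do not call these runs a batch. At 2 h the median was 1.45 for Lenvatinib, 1.62 for TG100115 and 1.51 for MK2206, so their 1 h values lay nearer to their own 2 h values than to the 1 h values of the other CKIs. Whether the time labels of these 4 libraries are right was not tested. Without these 4 libraries the median at 1 h was 0.07, and 59 late-gain CREs were higher and 70 lower at 1 h. From 1 h to 4 h 960 late-gain CREs rose. Of all CREs 22.5% were higher and 18.9% lower at 1 h in this setting, and 11.7% rose from 1 h to 4 h.

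**Figure D2:**
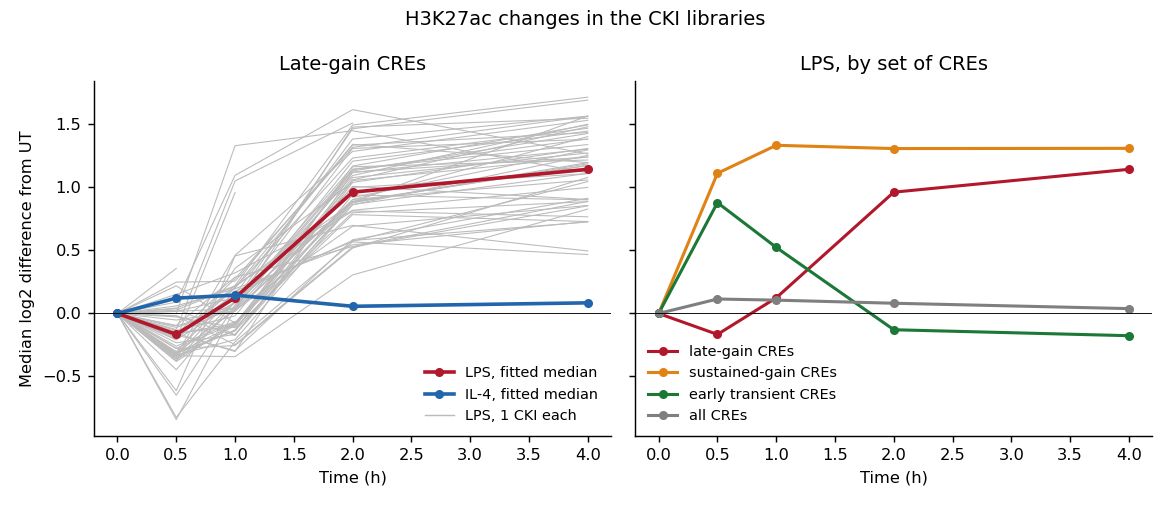
Median log2 difference from UT over CREs against time (h) in CKI libraries. Left, late-gain CREs, with 1 grey line per CKI under LPS and the median of the fitted differences under LPS (red) and IL-4 (blue). Right, fitted medians under LPS for late-gain, sustained-gain, early transient and all CREs. Late-gain CREs pass from -0.17 at 30 min to 1.14 at 4 h, the sustained-gain CREs stand at 1.11 at 30 min, and 4 grey lines lie near 1 at 1 h.

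The late rise was present in each CKI with a 4 h library. The median over late-gain CREs was above 0 in 55 of 55 CKIs, from 0.47 for Afatinib, an inhibitor of ERBB receptors, to 1.72 for ONO4059analogue. It was above the median of all CREs of the same CKI in 55 of 55. Across the 6 runs the median of the fitted 4 h difference over late-gain CREs was 0.77, 1.19, 1.16, 1.45, 1.38 and 1.04. Over all CREs it was -0.08, -0.08, -0.05, 0.11, 0.23 and 0.03 in the same order. In all 6 runs 985 late-gain CREs were above 0, a number not counted for all CREs. The contrast of the libraries, the median level of the strongest 10% of CREs over that of the weakest 10%, had a median of 11.1 in the first run and 36.6 in the fourth, and its part in the size of the response was not tested. The contrast was 53.0 to 134 in DMSO libraries and 3.34 to 67.2 in CKI libraries.

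Interferon signals through JAK kinases, so the CKIs were also compared by their named target. Doses differed between compounds. The median 4 h difference over late-gain CREs ranged from 0.85 to 1.69 in 6 JAK inhibitors, from 0.50 to 1.53 in 4 p38 inhibitors, from 1.24 to 1.57 in 3 MEK inhibitors, from 0.73 to 1.2 in 5 PI3K and mTOR inhibitors, and from 0.47 to 1.72 in 37 other CKIs. The PI3K and mTOR class held AZD2014, Apitolisib, BGT226, Omipalisib and PF04691502, while AZD8186 (0.89) and TG100115 (1.27), which inhibit some PI3K isoforms, were among the 37. The ranges overlapped. Among JAK inhibitors the value was 1.31 for Ruxolitinib, 1.69 for Tofacitinib, 1.19 for Momelotinib, 1.43 for Pacritinib, 1.08 for BMS911543 and 0.85 for Filgotinib. Set against the median of their own run these lay between -0.07 and 0.28. Among p38 inhibitors it was 0.50 for Talmapimod, 1.11 for PH797804 and 0.85 for Losmapimod, each the lowest of its run, and 1.53 for VX702. The median over all CREs was -0.75, 0.77, 0.41 and -0.18 in these libraries, and the part of such shifts in the values was not tested.

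No late-gain CRE was called lower under any of these classes than under the 37 other CKIs in the limma fit at an adjusted p under 0.05. The share called lower over all CREs was 0% for JAK, 0% for p38, 0% for MEK and 0.00507% for PI3K and mTOR inhibitors. At an unadjusted p under 0.05, 3 late-gain CREs were lower with JAK inhibitors (0.293%, against 0.172% of all), 121 with p38 inhibitors (11.8%, against 3.65%), 0 with MEK inhibitors (against 1.14%) and 130 with PI3K and mTOR inhibitors (12.7%, against 7.42%). The median class difference over late-gain CREs was 0.05 for JAK, -0.24 for p38, 0.26 for MEK and -0.22 for PI3K and mTOR inhibitors, and over all CREs it was 0.20, 0.05, 0.05 and -0.03 in the same order. These medians moved with the settings. That of JAK inhibitors was -0.10 with quantile normalization, -0.07 with 4 h libraries alone, -0.04 without Tofacitinib, 0.09 without BMS911543 and 0.12 without Filgotinib. That of p38 inhibitors was -0.07 without Talmapimod, -0.44 without VX702, -0.06 with 4 h libraries alone and -0.38 with the run of columns as a factor. With the run as a factor it was 0.08 for MEK and -0.05 for PI3K and mTOR inhibitors, and with quantile normalization 0.03 and -0.12. Without VX702 the p38 class had 29 late-gain CREs called lower, against 0.632% of all CREs. The PI3K and mTOR class had 7 without Apitolisib and 6 without BGT226, against 0.536% and 0.313% of all. With AZD8186 and TG100115 counted in that class, 0 were called lower and 126 were lower at an unadjusted p under 0.05. For single CREs the error was wide. The most negative JAK differences were -1.72 ± 0.67 (SE) near Gm4070, -0.93 ± 0.92 near Gm13275 and -0.86 ± 0.38 near Chrm3, with adjusted p of 0.81, 0.83 and 0.81 in limma. Of the windows of the first pair 96.8% and 95.2% were repeated in the genome.

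**Figure D3:**
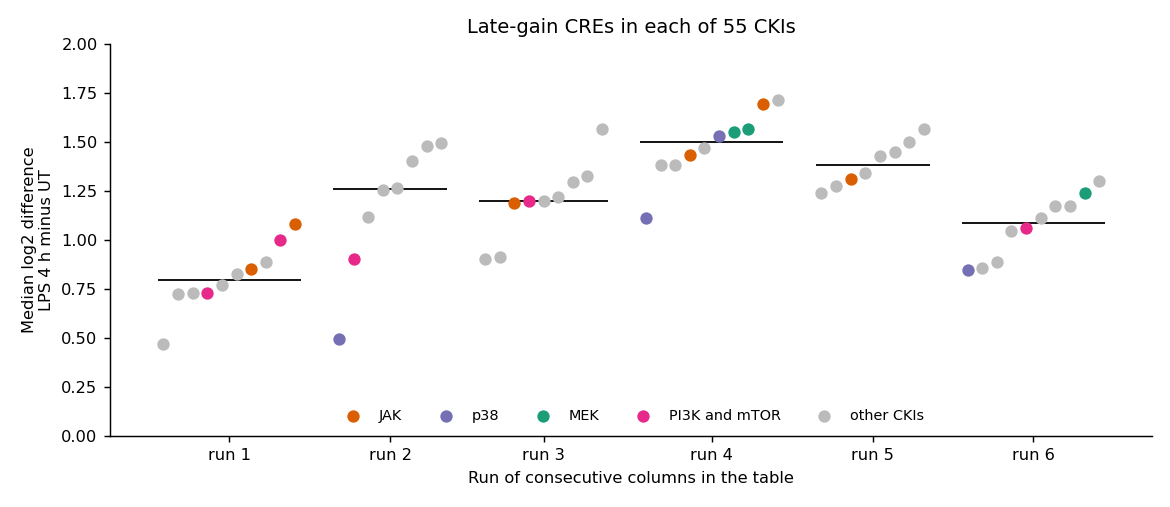
Median log2 difference between LPS 4 h and UT over the late-gain CREs (1 point per CKI, 55 CKIs), grouped by run of consecutive columns and coloured by named target, with the median of each run as a line. All points lie above 0, from 0.47 to 1.72, and the runs differ in level and the coloured classes lie among the other CKIs. The p38 inhibitors Talmapimod (0.50), PH797804 (1.11) and Losmapimod (0.85) are the lowest of their runs.

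The 12 CREs with the largest 4 h difference in CKI libraries, 1 per nearest gene, had log2 differences from 2.47 to 3.32. The first was 1867 bases before the start of Slfn4, a Schlafen family gene, in intergenic sequence (chr11:83172440-83174198). Its DMSO levels were 71 and 81 in UT, 38 and 63 at 30 min, 134 and 101 at 1 h, 1001 and 1158 at 2 h, and 1300 and 991 at 4 h of LPS. In CKI libraries its lowest, median and highest level was 7, 75.5 and 162 in UT and 207, 749 and 1185 at 4 h, a log2 difference of 3.32 ± 0.15 (SE, limma adjusted p = 1.3e-72), and it was higher in 55 of 55 CKIs. The CRE near Slfn1 (chr11:83124266-83125862) went from 46 and 48 to 932 and 698, with a CKI difference of 3.14 ± 0.15 (adjusted p = 1.0e-70). Of its windows 28.7% were repeated.

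Ifi208 and Ifi206 belong to the family of interferon-inducible PYHIN genes, whose proteins bind nucleic acids. The Ifi208 CRE covered the gene's start and 5′ UTR (chr1:173672831-173674719) and had 40 and 42 in UT, 13 and 27 at 30 min, 416 and 383 at 2 h, and 446 and 418 at 4 h of LPS. The Ifi206 CRE, centred in an intron 488 bases after the start, went from 88 and 81 to 866 and 690. Their CKI differences were 2.77 ± 0.12 and 2.66 ± 0.10. The CRE at the start of Phf11a went from 62 and 52 to 654 and 494 (2.76 ± 0.11), and that of the related gene Phf11d from 90 and 112 to 701 and 621 (2.10 ± 0.09). In DMSO each 4 h library of these CREs was above every UT library, as in all 1023 late-gain CREs. The rule chose them by these same libraries, and the count was not made for all CREs.

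Others lay far from a start or in introns of neighbours. The CRE nearest to Sema7a, a membrane-bound semaphorin, was in an intron of Ubl7 (chr9:57927120-57928746) and held both an IRF pair and a STAT palindrome. Its levels were 20 and 27 in UT, 25 and 31 at 30 min, 45 and 36 at 1 h, 386 and 313 at 2 h, and 402 and 365 at 4 h. None of its windows was repeated, and the CKI difference was 2.76 ± 0.11 (limma adjusted p = 3.1e-92). The intergenic CRE near Mier3 (chr13:111654660-111656244), with 2 IRF pairs, had 45 and 31 in UT, 5 and 46 at 30 min, and 405 and 400 at 4 h. The Senp2 CRE, in an intron of Igf2bp2, had 30 in both UT libraries and 468 and 435 at 4 h. The remaining ones among the 12 largest, near Plekhf2, Spats2l, Dop1b and Coq2, had CKI differences of 2.65, 2.5, 2.49 and 2.47. At the Dop1b CRE the rise continued, from 124 and 91 at 2 h to 308 and 285 at 4 h, a CKI difference between these times of 0.95 (adjusted p = 1.5e-12).

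**Figure D4:**
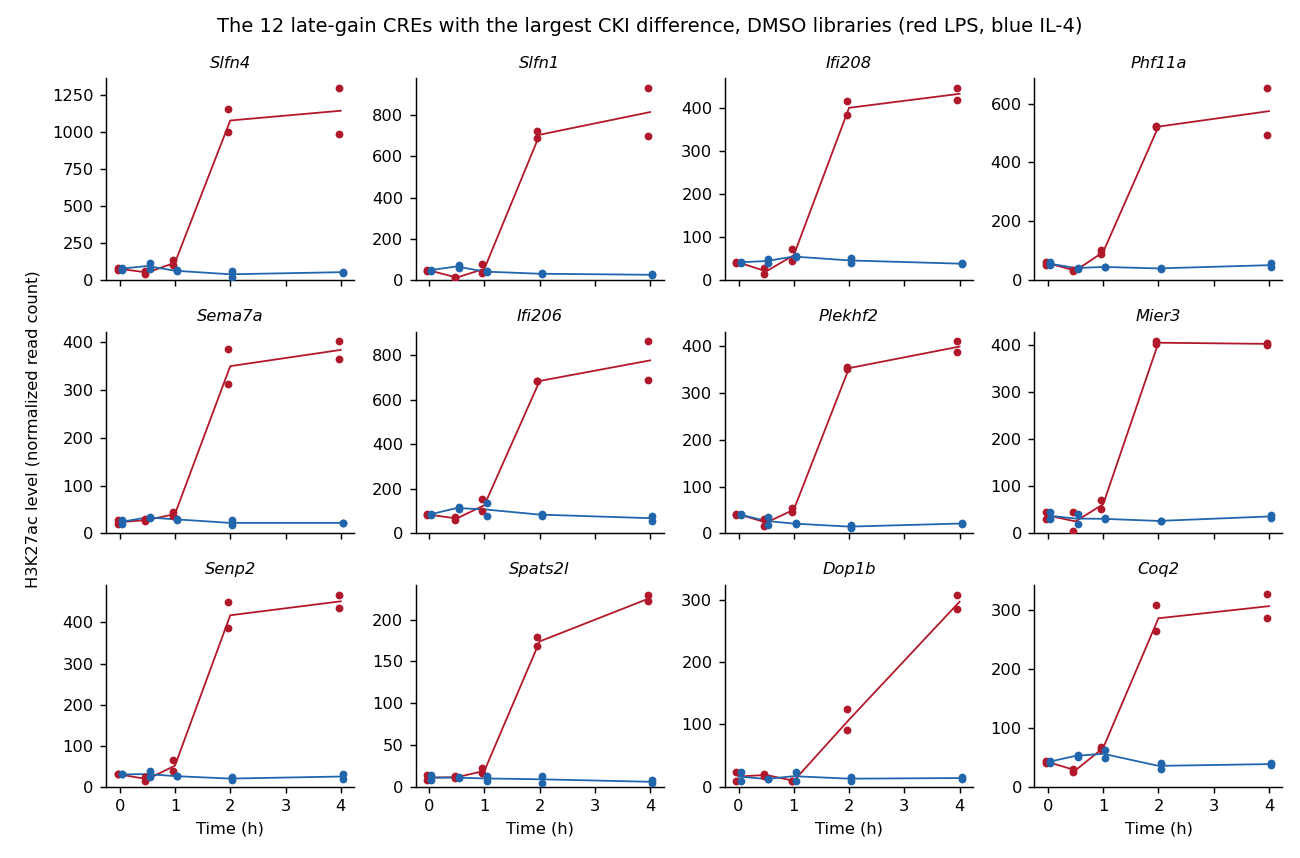
H3K27ac level (normalized read count) against time (h) of the 12 late-gain CREs with the largest 4 h difference in CKI libraries, titled by the nearest gene, in DMSO libraries. Points are libraries and lines join the means, red for LPS and blue for IL-4, each panel on its own scale from 0. Most are near their 4 h level by 2 h of LPS, Dop1b is not (124 and 91 against 308 and 285), and the IL-4 points at 2 h and 4 h lie below the LPS points of the same times in every panel.

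Of the 4 late-gain CREs with the most acetylation before stimulation, 3 were lower at 30 min than in UT in CKI libraries. Over all CREs the share was 18.9%, and it was not counted among CREs of similar UT level. At Irgm1, an interferon-inducible GTPase that acts in autophagy and defence, the level was 813 and 859 in UT, 531 and 543 at 30 min, 947 and 883 at 1 h, 2417 and 2334 at 2 h, and 2127 and 1938 at 4 h. In CKI libraries it fell by 0.83 at 30 min (limma adjusted p = 2.4e-51) and was 0.90 ± 0.05 higher at 4 h. Ms4a6c went from 741 and 707 to 404 and 450 at 30 min and 1963 and 1622 at 4 h, with CKI differences of -0.63 and 1.17. An intronic CRE of Frmd4a went from 645 and 572 to 340 and 370 and then 2230 and 1771 (-0.65 and 1.5). The CRE near B4galt5 was not lower at 30 min in DMSO (564 and 583 in UT, 559 and 664 at 30 min) and had a CKI difference of -0.24 at 30 min, under the size needed for a call.

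Interferon-inducible GTPases, which attack the vacuoles of intracellular microbes, were the list with the largest share of late-gain CREs. Of 41 CREs within 50 kb of their starts 12 (29.3%) were late-gain CREs, near 7 genes, against 1.76% of CREs near all protein-coding genes. All 12 were higher at 4 h in CKI libraries, where 33 of the 41 CREs (80.5%) were, and 6 held an IRF pair. At the Tgtp1 start the level was 25 and 24 in UT, 13 and 28 at 30 min, and 259 and 229 at 4 h (CKI difference 2.38 ± 0.10). The Ifi47 CRE went from 105 and 82 to 38 and 36 at 30 min and 470 and 354 at 4 h, and the Igtp CRE from 219 and 233 to 180 and 174 and then 544 and 619. Tgtp1 and Tgtp2 are near-identical genes, but 7.68% and 3.29% of the windows of their late-gain CREs were repeated.

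Of 138 CREs near interferon-stimulated antiviral genes 10 (7.25%) were late-gain CREs, near 9 genes that include Oas3 and Eif2ak2, sensors of double-stranded RNA, and 90 of the 138 (65.2%) were higher at 4 h in CKI libraries. None of these 10 held an IRF pair in the central 400 bases. Near Parp14 the level went from 35 and 26 in UT through 97 and 99 at 2 h to 236 and 202 at 4 h. Pml and Sp100, components of nuclear bodies, went from 254 and 255 to 908 and 744, and from 264 and 279 to 906 and 764, with CKI differences of 1.33 ± 0.06 and 1.22 ± 0.07. Of the windows of the Sp100 CRE 61.5% were repeated.

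Of 156 CREs near IRF, STAT and JAK genes 6 (3.85%) were late-gain CREs. Upstream of Irf7, the factor that amplifies interferon production, the level was 132 and 129 in UT, 63 and 64 at 30 min, 187 and 160 at 1 h, 595 and 554 at 2 h, and 768 and 647 at 4 h (CKI difference 1.81 ± 0.07). The Stat3 intron CRE went from 83 and 81 to 273 and 290, and the Irf8 CRE from 207 and 210 to 587 and 474. The Stat5b CRE peaked at 2 h, at 246 and 265, and had 136 and 156 at 4 h. In CKI libraries it fell by 0.53 from 2 h to 4 h (limma adjusted p = 4.8e-07), 1 of 4 late-gain CREs that fell between these times (0.391%, against 2.54% of all).

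Antigen presentation genes had 4 late-gain CREs among 82 (4.88%), near H2-T23, Tap1, Pdcd1lg2 and Cd86. The CRE between Tap1, which moves peptides for MHC class I loading, and Psmb9 went from 474 and 507 in UT to 295 and 315 at 30 min and 1236 and 1245 at 4 h. Immunometabolism and effector enzymes had 4 of 140 (2.86%). Near Nos2, the inducible nitric oxide synthase, the level was 98 and 117 in UT, 256 and 232 at 2 h and 425 and 369 at 4 h. NF-kB and MAPK feedback genes had 3 of 238 (1.26%), near Tnip1, Fos and Nfkb1, and macrophage identity genes had 1 of 163 (0.613%), near Fcgr1. Chemokines and cytokines had 0 of 144, although 99 of these CREs (68.8%) were higher at 4 h in CKI libraries.

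The late-gain CREs differed in when they approached their 4 h level. Between 2 h and 4 h of LPS 186 of them (18.2%) rose further in CKI libraries, against 5.75% of all CREs. These had medians of 0.52 at 2 h and 1.23 at 4 h, and the other 837 had 1.04 and 1.13. An IRF pair was present in 17 of the 186 (9.14%, Wilson 95% interval 5.78% to 14.2%) and in 202 of the 837 (24.1%, 21.4% to 27.1%). AP-1 sites, TGANTCA, were in 45 of the 186 (24.2%) and 141 of the 837 (16.8%). The intervals cover sampling of CREs only. Seen from the motif, late-gain CREs with an IRF pair had a DMSO median D of 1.79 at 2 h and 1.72 at 4 h, and those without had 1.32 and 1.58. In CKI libraries these were 1.18 and 1.23 with the pair and 0.86 and 1.12 without it. The 4 h median was higher with the pair in 54 of 55 CKIs. Midostaurin was the exception, at 0.89 with the pair and 0.90 without it.

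**Figure D5:**
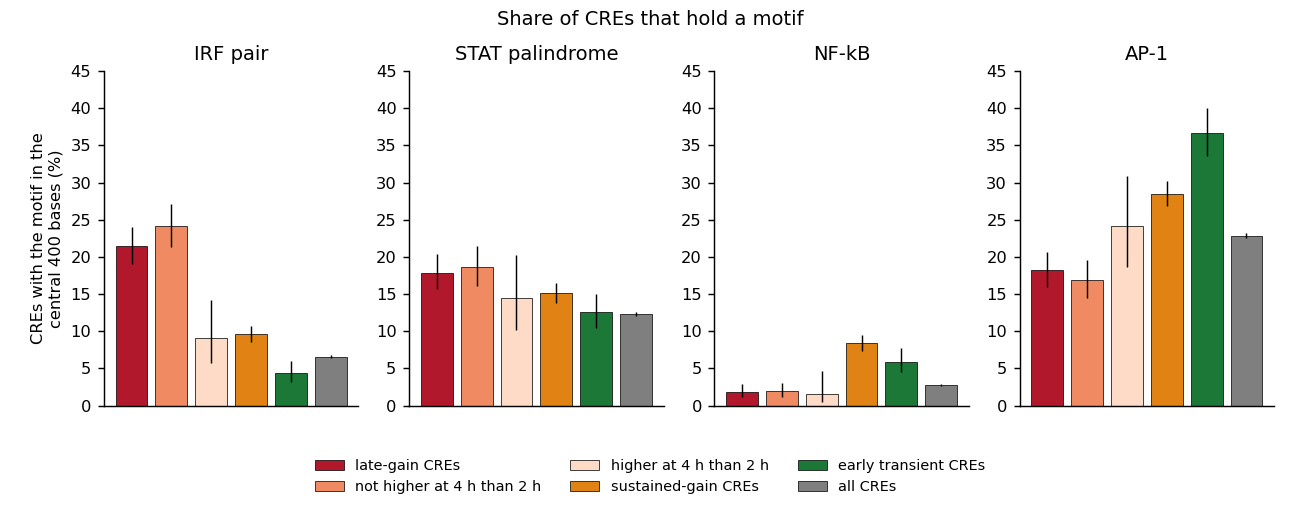
Share of CREs (%) with a motif in the central 400 bases of the CRE, for late-gain CREs, the same divided by whether they rose from 2 h to 4 h in CKI libraries, sustained-gain, early transient and all CREs. Bars are shares and error lines are Wilson 95% intervals. The IRF pair stands at 21.4% in late-gain CREs and 6.57% in all CREs, at 24.1% in those not higher at 4 h than at 2 h and 9.14% in those that were, and the NF-kB and AP-1 sites have their highest shares in the other gain sets.

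The NF-kB and AP-1 motifs also differed in share between the gain sets. An NF-kB site, GGANTTTCC, was in 1.86% of late-gain, 8.39% of sustained-gain, 5.92% of early transient and 2.80% of all CREs. AP-1 sites were in 18.2%, 28.5%, 36.7% and 22.8%, and IRF pairs in 21.4%, 9.57%, 4.38% and 6.57%, in the same order. The palindrome TTCNNNGAA was in 17.9%, 15.1%, 12.5% and 12.3%. For the palindrome the Wilson 95% intervals of late-gain (15.7% to 20.4%) and sustained-gain CREs (13.8% to 16.5%) overlapped. A PU.1 site, GAGGAAGTG, bound by the factor that defines macrophage enhancers, was in 3.62% of late-gain, 3.22% of sustained-gain, 4.50% of early transient and 4.40% of all CREs. The CREB and ATF site, TGACGTCA, was in 0.293%, 0.924%, 1.3% and 1.01%, in that order, and the CTCF site, CNAGGGGGC, in 1.08%, 0.924%, 1.42% and 2.60%. The C/EBP site, TTGCGCAA, was in 0.0978%, 0.259%, 0.118% and 0.204%, and the site of C/EBP with ATF, TTGCATCA, in 1.47%, 1.85%, 1.42% and 1.47%. Both strands were searched. Matches of different motifs may overlap, and a match is a description of letters. Of the 283 late-gain CREs with an IRF pair in the central 800 bases, 159 had the nearest one within 100 bases of the centre, at a median distance of 75 bases.

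Late-gain CREs lay mostly outside promoters. Their centres were in introns for 508, intergenic for 457, in UTRs for 34 and in exons for 24, and 106 (10.4%) were within 1 kb of a protein-coding start, against 19.2% of all CREs. The median distance to the nearest start was 13447 bases, and 13177 over all CREs. GC content of the central 400 bases had a median of 45.5%, against 48.0%. The CREs were spread over 21 chromosomes and 849 nearest genes, 719 of which had 1 late-gain CRE. Rftn1 had 6, Fggy and Ubr2 had 5, and 118 late-gain CREs had another within 5 kb. The 106 near promoters had a median UT level of 118, against 41.5 for the rest, and held an IRF pair in 14.2%, against 22.2%.

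IL-4 moved a minority of these CREs. In DMSO libraries their median level was 62 and 59 at 30 min, 50 and 58 at 1 h, 49 and 51 at 2 h, and 52 and 56 at 4 h of IL-4. In CKI libraries 181 (17.7%) were higher at 4 h of IL-4 than in UT, against 9.43% of all CREs, and 83 (8.11%) were lower, against 11.4%. Directly compared at 4 h, 857 (83.8%) were higher with LPS than with IL-4, against 22.1% of all, and 20 (1.96%) were lower, against 22.4%. Of the 181 raised by IL-4, 177 (97.8%) were also raised by LPS at 4 h, as were 97.8% of all late-gain CREs. Among them 117 were not called higher with LPS than with IL-4. That comparison uses the same IL-4 libraries that chose the 181, so the count is in part given by the choice. It was not made for all CREs raised by IL-4. The STAT palindrome was in 47 of these 181 (26.0%), in 125 of the 759 moved by IL-4 in neither direction (16.5%) and in 11 of the 83 lowered (13.3%).

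Named examples show each of these behaviours. In an intron of Pdcd1lg2, the gene of the PD-1 ligand PD-L2, the level was 39 and 58 in UT, 159 and 145 at 4 h of LPS, and 239 and 189 at 4 h of IL-4, with CKI differences of 1.13 and 1.27. At the Nfkb1 intron CRE it was 25 in both UT libraries, 60 and 82 at 4 h of LPS, and 170 and 155 at 30 min and 99 and 117 at 4 h of IL-4. Near Irf7 IL-4 gave 418 and 433 at 30 min and 381 and 327 at 4 h (CKI difference at 4 h 0.90 ± 0.07). The Irf8 CRE went the other way, from 207 and 210 to 110 and 79 at 4 h of IL-4, and the Nos2 CRE had a CKI difference of -0.71 ± 0.07 with IL-4 and 1.24 ± 0.07 with LPS.

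Within the IL-4 course of the DMSO libraries, which the rule did not use, 45 late-gain CREs (4.40%) rose from 30 min to 4 h, against 4.27% of all CREs, and 136 (13.3%) fell, against 11.3%, at a limma adjusted p under 0.01 and a log2 difference over 0.5. Both shares were close to those of all CREs. The largest rise was near C130074G19Rik, from 18 and 16 to 79 and 83, with 240 and 178 at 4 h of LPS. The next were in an intron of Tbc1d16, from 94 and 59 to 236 and 245, and near Fam196b in an intron of Dock2, from 79 and 68 to 224 and 201. The largest falls were near Sirpb1c (94 and 113 to 22 and 11), Gm5150 (521 and 548 to 110 and 113) and Phlpp1 (179 and 169 to 35 and 34). At Gm5150 the early IL-4 level exceeded that at 4 h of LPS, which was 229 and 184.

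The smallest 4 h differences in CKI libraries belonged to CREs near Gm13275, Gm13277 and Tut4. Near Gm13275 the UT libraries had 0 and 40, the 4 h libraries 89 and 120 and the CKI difference was -0.36 ± 0.32 (limma adjusted p = 0.32). Near Gm13277 the values were 0 and 25, then 46 and 36, and the difference was -0.03 ± 0.32 (adjusted p = 0.94). Of the windows of these CREs 95.2% and 96.6% were repeated in the genome. The CRE near Tut4 had no repeated windows, went from 41 and 26 to 110 and 71 in DMSO, and had a CKI difference of 0.20 ± 0.09 (adjusted p = 0.045). With at most 10% repeated windows there were 902 late-gain CREs, of which 886 were higher at 4 h in CKI libraries and 21.5% held an IRF pair.

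The labelled cell type was checked at promoters. Acetylation in UT DMSO libraries was 2082 at Spi1, 636 at Itgam and 647 at Lyz2, macrophage genes, and 0.5 at Pax5 (B cell), 12.5 at S100a8 (neutrophil), 3.5 at Col1a1 and 1.5 at Pdgfra (fibroblast). The endothelial genes Cdh5 and Kdr had 290 and 71.0. The other 11 marker genes had no CRE within 1 kb of their start. Total normalized reads in CREs were 5923684 to 6873668 in DMSO and 4066894 to 12391409 in CKI libraries. The reads behind these values were not estimated here, so no counting interval is given.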

How the data were processed

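Per the study's methods, single-end reads were cut to 51 bases, mapped to mm10 with ShortStack, and counted around ATAC-seq summits. Bowtie and SAMtools are named in the submitters' processing notes. The authors deposited 1 table of 59190 CREs by 564 libraries, and its values are a score: normalized counts, scaled by the authors on invariant peaks and rounded to whole numbers, so count models were not applied. Reads matching several places were placed by the mapper. Groups came from the treatment labels, and 0 columns of the table were left out.

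The members, gene lists and motifs were chosen with earlier results of these data known. Values were analysed as log2(value + 5), a scale that understates changes of low CREs, with limma 3.58.1 in R 4.3.3, for CREs with a mean of at least 10. The CKI fit held stimulus and time, with CKI as a block, and libraries of 1 condition were averaged. p-values were adjusted by Benjamini-Hochberg over all CREs tested. CRE calls used 0.01 and a log2 difference over 0.5, and class comparisons used 0.05. Each class was compared with CKIs of none of the 4 classes on the difference between LPS 4 h and UT. Nearest genes were protein-coding starts of GENCODE vM21 and sequence was RefSeq GRCm38.p6, both of the build of the table. Motifs were counted on both strands in the central 400 bases, and repeated windows were 51-base windows found again on the assembled chromosomes. The scripts were tested on simulated data.

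The CREs named were the 12 with the largest CKI difference at 4 h (1 per gene), the 4 with the highest UT level, up to 4 per gene list within 50 kb, the 3 largest rises and falls over the DMSO IL-4 course, the 3 most negative JAK and the 3 smallest CKI differences, and the 2 nearest to the 4 h threshold on each side. CREs on chromosome 18 were counted and not named. Tomm70a and Edn1 were added after their values were seen, for their sequences. Alternatives were other pseudocounts, thresholds, filters and motif windows, quantile normalization, single libraries left out and single runs of columns. Those chosen after seeing the data, described in the results, were leaving out CREs with repeated windows, leaving out the LPS 1 h libraries of 4 CKIs and counting 2 more CKIs as PI3K inhibitors.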

Additional observations from a re-analysis of the deposited data

How the results depend on the processing

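Over DMSO libraries left out 1 at a time the rule chose 930 to 1176 CREs, of which 831 to 985 were among the 1023, and with a pseudocount of 1 or 20 it chose 1073 or 895. The rise at 4 h of LPS in CKI libraries was called in 542 late-gain CREs in the first run of columns alone. Of all CREs 9.90% were called there. The fall at 30 min was called in 30 with a log2 difference over 1, against 6.41% of all CREs. It was called in 154 with a pseudocount of 20, against 15.46%, and in 108 in the second run alone, against 14.99%. The rise from 1 h to 4 h was called in 575 with a difference over 1, against 3.29% of all. In the first run alone it was called in 501, against 4.03%, and in the second run alone in 401, against 3.69%. LPS exceeded IL-4 at 4 h in 541 with a difference over 1, against 11.1% of all. It did so in 418 in the first run alone, against 8.07%. The rise at 4 h of IL-4 was called in 72 and in 78 under the same settings, against 3.32% and 4.88% of all. In these runs alone fewer CKIs were fitted, and otherwise the cause was not tested. Quantile normalization called 36 late-gain CREs lower with p38 inhibitors, against 1.01% of all, and 1 with PI3K and mTOR inhibitors, against 0.0507%. With 4 h libraries alone 71 were called lower with PI3K and mTOR inhibitors, against 2.62% of all. Leaving out 1 inhibitor gave 0 to 29 for p38, 0 to 7 for PI3K and mTOR, and 0 for JAK and MEK inhibitors. The highest shares over all CREs were 0.632% for p38 and 0.536% for PI3K and mTOR inhibitors. Over the DMSO IL-4 course 68 rose with quantile normalization, and 15 to 33 with 1 library left out, where the lone sample is assumed to vary like the others. The replicate numbers of DMSO do not pair the libraries (36 correlations of deviations, -0.09 to 0.07), and with the replicate block 45 rose, as without it. IRF pairs were in 15.2% of late-gain CREs (3.55% of all) in the central 200 bases and in 27.7% (11.9% of all) in 800. Within 2.5 kb of a start lay 15.6% of late-gain and 24.0% of all CREs. In all, 131 of 163 recomputed values stayed within 1.5 times the reported count or within its interval. Depth could not be weighed, since reads behind the values were not estimated here.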
